A study of Homo sapiens with 30 samples.

Results

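The clustered protocadherins are the PCDHA, PCDHB and PCDHG genes that stand in a row on human chromosome 5. They were taken here as every symbol in the deposited counts that is PCDHA, PCDHAC, PCDHB, PCDHGA, PCDHGB or PCDHGC followed by a number. That rule, which uses names alone, found 53 of the 24462 symbols counted: 15 of the alpha cluster, 16 of the beta cluster and 22 of the gamma cluster, the last made up of 12 A-type, 7 B-type and 3 C-type genes. The counts came from 30 libraries of 3 established colorectal cancer lines, in 10 groups of 3, and every library was made with a QuantSeq kit, so a count stands for a tag close to where a poly(A) RNA ends.

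Caco2, a line that differentiates into enterocyte-like cells in culture, had 4 groups. Cells with a scramble hairpin were kept in vehicle or in differentiation medium, which held troglitazone (10 uM, to activate PPARG) and 1α,25-dihydroxyvitamin D3 (25 nM, to activate VDR). Cells with a hairpin against SETDB1, the enzyme that trimethylates lysine 9 of histone H3, were sorted into a KRT20-negative and a KRT20-positive fraction. HCT116 and SW480 each had KRT-negative and KRT-positive fractions of SETDB1-hairpin cells and an unsorted group. The labels give neither a hairpin nor a medium for the unsorted cells and no medium for any SETDB1-hairpin fraction, so in HCT116 and SW480 the hairpin, the sort and the culture cannot be told apart. In Caco2 the hairpin cannot be told apart from the sort or from a medium that is not stated. The hairpins were delivered by retrovirus with puromycin selection, and nothing in the labels says whether replicates were separate cultures, so p-values measure the spread between these libraries, which may be technical.

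Protocadherins of these clusters are cadherin-family proteins of the cell surface, known above all from neurons, where each cell switches on its own small set and neurites that carry the same set recognise each other. Each gene of the alpha and gamma clusters is a variable exon with its own promoter, spliced to constant exons shared by the whole cluster and coding for a common cytoplasmic tail; each beta gene is a single exon with no shared tail. Promoter choice at the locus involves CTCF, cohesin and an enhancer, and the silent promoters carry DNA methylation and histone H3 lysine 9 methylation. SETDB1 and SMCHD1 are known regulators of the locus in mouse cells, and its promoters are known to be methylated in several cancers, colorectal cancer among them. The C-type gene PCDHGC3 is known to be used in many tissues outside the nervous system.

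In RefSeq's GRCh38.p14 annotation the alpha cluster spans chr5:140786140-141012347, the beta cluster chr5:141051374-141249365 and the gamma cluster chr5:141330514-141512975. The genes TAF7 and SLC25A2 lie between the beta and the gamma cluster. In GENCODE 29 all 15 alpha genes have a transcript that ends at one shared place, and so do all 22 gamma genes. For 14 alpha and 22 gamma genes there is also a shorter transcript that ends where no other gene of the cluster ends, and all 16 beta genes have an end of their own (ends within 10 bases were taken as the same). A 3′ tag in the shared last exon of the alpha or gamma cluster cannot be assigned to a gene from its sequence, and how such tags were assigned is not given in the sources used here. Counts of a single alpha or gamma gene are therefore uncertain, the sum over a cluster is less so, and the beta genes do not share this limit, although beta genes resemble each other in coding sequence.

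The promoters of the 5 genes on which the results below turn are shown first, each as the 250 bases before the start of its RefSeq transcript, on the plus strand of GRCh38.p14, with every CGCT in capitals. CGCT is the core of a sequence element known from the promoters of this locus.

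PCDHB9: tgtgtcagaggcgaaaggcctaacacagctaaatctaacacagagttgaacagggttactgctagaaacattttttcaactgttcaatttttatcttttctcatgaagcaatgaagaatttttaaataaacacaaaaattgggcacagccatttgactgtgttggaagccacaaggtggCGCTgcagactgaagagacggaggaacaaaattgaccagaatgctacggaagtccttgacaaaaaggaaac
PCDHB10: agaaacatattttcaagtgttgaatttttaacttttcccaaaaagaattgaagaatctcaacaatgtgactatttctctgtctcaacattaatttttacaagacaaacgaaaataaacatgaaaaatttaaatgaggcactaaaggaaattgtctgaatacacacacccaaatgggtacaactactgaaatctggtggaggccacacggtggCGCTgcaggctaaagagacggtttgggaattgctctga
PCDHB14: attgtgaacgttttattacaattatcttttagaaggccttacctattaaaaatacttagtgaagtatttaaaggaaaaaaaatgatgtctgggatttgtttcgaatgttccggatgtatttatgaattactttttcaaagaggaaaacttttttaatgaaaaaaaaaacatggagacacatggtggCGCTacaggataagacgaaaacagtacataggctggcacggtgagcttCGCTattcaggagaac
PCDHGC3: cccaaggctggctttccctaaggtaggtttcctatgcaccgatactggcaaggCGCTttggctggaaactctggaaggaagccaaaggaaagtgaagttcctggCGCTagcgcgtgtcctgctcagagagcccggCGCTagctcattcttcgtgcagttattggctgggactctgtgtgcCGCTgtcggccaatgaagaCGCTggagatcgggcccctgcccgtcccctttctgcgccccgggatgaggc
PCDHGA10: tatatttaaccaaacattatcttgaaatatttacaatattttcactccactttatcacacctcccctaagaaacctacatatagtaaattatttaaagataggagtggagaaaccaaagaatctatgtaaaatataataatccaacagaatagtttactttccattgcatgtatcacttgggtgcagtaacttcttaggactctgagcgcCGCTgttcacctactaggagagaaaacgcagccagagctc

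They lie at chr5:141186911-141187160 (PCDHB9), chr5:141192103-141192352 (PCDHB10), chr5:141223093-141223342 (PCDHB14), chr5:141475716-141475965 (PCDHGC3) and chr5:141412737-141412986 (PCDHGA10). PCDHB9, PCDHB10 and PCDHGA10 each hold CGCT 1 time, PCDHB14 holds it 2 times and PCDHGC3 5 times. In each of the 3 beta promoters the letters before one CGCT complete GTGGCGCT, a longer string that neither gamma promoter holds. RefSeq windows were at hand for 47 of the 53 genes, 52 windows in all because some genes have several starts. CGCT on the strand of the gene was in 50 of these 52 windows (96.2%), against 48.1% of 35116 windows of all genes, and on either strand in 96.2% against 64.8%. GTGGCGCT on the strand of the gene was in 12 of 14 beta windows (85.7%), 0 of 13 alpha and 0 of 25 gamma windows, against 0.524% of all windows (0.940% on either strand). GTGGCGCT contains CGCT, and both strings were chosen after the values were known. A match describes these letters and is not a binding site. The gene windows also held fewer CpG dinucleotides, the places where DNA is methylated, with a median of 6 against 11 in all windows; PCDHB9 and PCDHB10 had 4 each, PCDHGA10 had 3, PCDHB14 had 7 and PCDHGC3 had 15.

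Most of the 53 genes were near or at 0. Of the 53, 16 had no count in any of the 30 libraries: PCDHA1, PCDHA2, PCDHA4, PCDHA9, PCDHA11, PCDHA13, PCDHAC1 and PCDHAC2 of the alpha cluster, PCDHB1 of the beta cluster, and PCDHGA4, PCDHGB2, PCDHGA7, PCDHGB4, PCDHGB5, PCDHGA9 and PCDHGC5 of the gamma cluster. A count of 0 allows up to 3 counts, which is 0.293 to 0.561 CPM (counts scaled to the library's size) depending on the library and covers counting error only. The other 37 genes had counts somewhere. Caco2 had 32 of them, HCT116 24 and SW480 7, with 6 genes counted in all 3 lines. PCDHGC3 was the only one of the 53 counted in every library. In all, 7 genes passed the filter on low counts in at least 1 line: 3 in Caco2 (PCDHGC3, PCDHGA10, PCDHGB7), 5 in HCT116 (PCDHA8, PCDHB9, PCDHB10, PCDHB14, PCDHGC3) and 2 in SW480 (PCDHA8, PCDHGC3). A gene with counts in one group alone passes through that group, so the number that passed or differed is not evidence about the clusters.

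**Figure D1:**
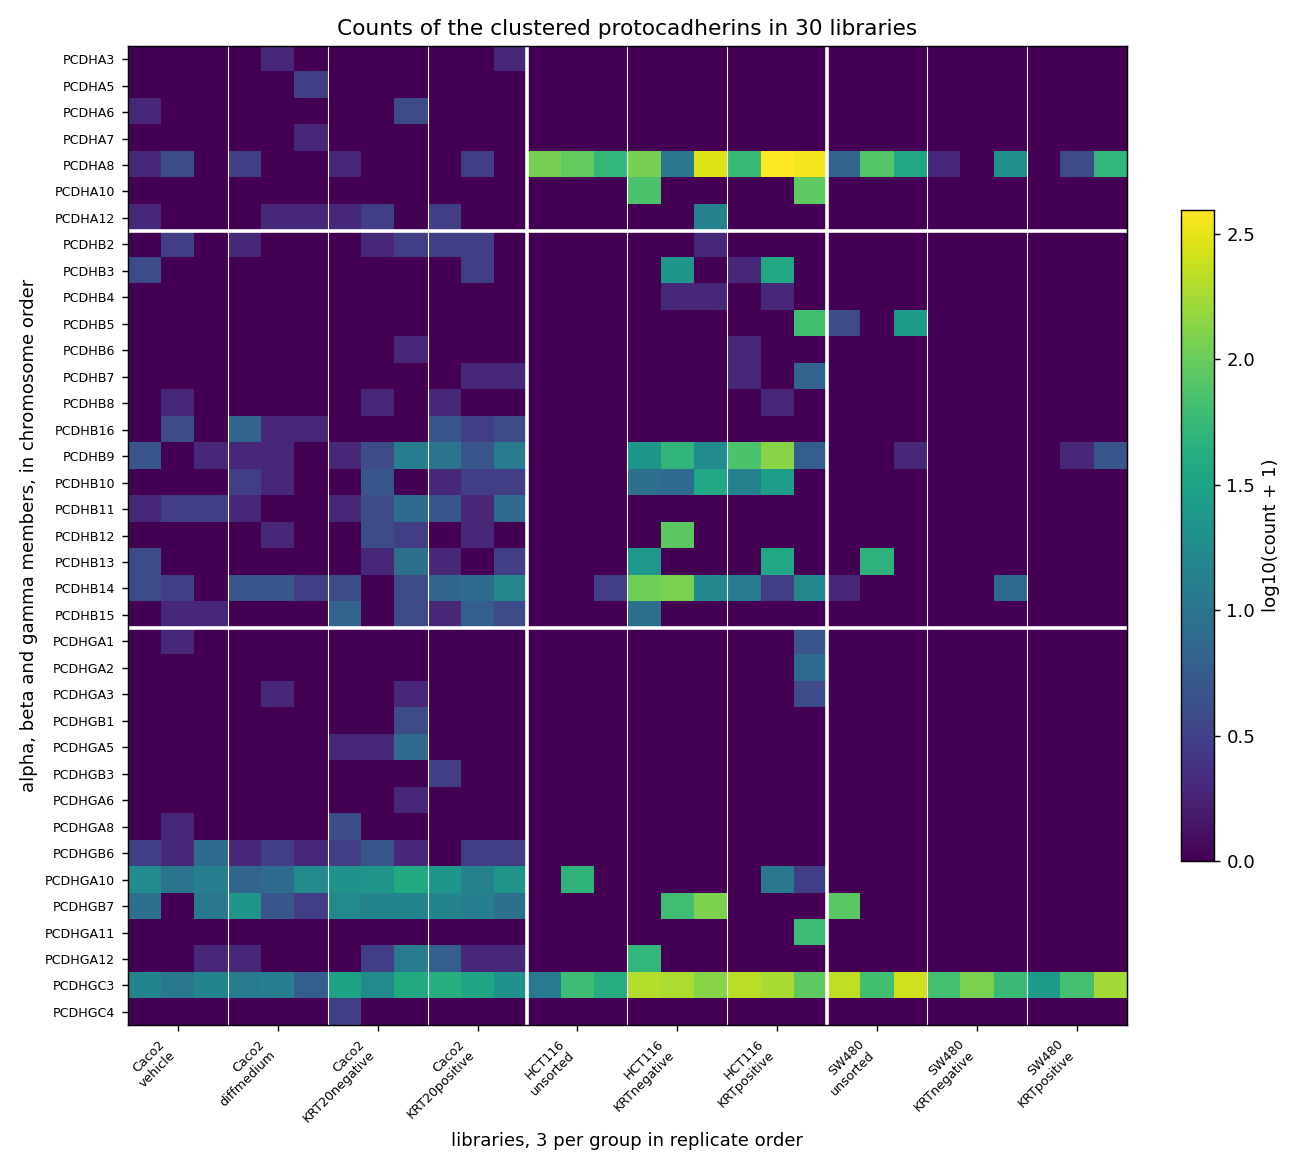
Each column is a library, 3 per group in replicate order, and each row a gene with at least 1 count, in chromosome order; color gives log10(count + 1). PCDHGC3 has counts in all 30 columns, and in HCT116 4 to 7 of the 16 beta genes have counts in each SETDB1-hairpin column and 0 to 1 in each of the 3 unsorted columns.

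PCDHA8 had the most counts of the alpha cluster and PCDHGC3 of the gamma cluster in each of the 3 lines, at different shares, while the leading beta gene was another in each line. In Caco2 the counts were spread: PCDHGC3 held 38.2% of the 641 gamma counts, PCDHB14 22.3% of the 220 beta counts and PCDHA8 9 of the only 26 alpha counts over 12 libraries. In HCT116 PCDHA8 held 89.6% of 1668 alpha counts, PCDHGC3 75.3% of 1488 gamma counts and PCDHB9 31.8% of 942 beta counts. SW480 used the fewest genes: PCDHA8 held 100.0% of 193 alpha counts, PCDHGC3 92.6% of 1131 gamma counts and PCDHB13 52.8% of 89 beta counts. The Caco2 alpha counts never exceeded 3 for a gene and library, while PCDHA8 reached 394 in HCT116 and 80 in SW480.

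The libraries of HCT116 and SW480 were sparser than those of Caco2. A Caco2 library held 6538087 to 10074838 counts over 17176 to 18099 symbols. For HCT116 the ranges were 5349737 to 10221854 counts and 12887 to 14148 symbols, and for SW480 6915326 to 10036179 and 11972 to 13782. For a gene counted in 1 of the 3 libraries of a group, the median of that lone count was 1 (Caco2), 8 (HCT116) or 15 (SW480), and 0.600%, 47.8% and 56.4% of such counts were 10 or more. A single high count beside zeros is thus common in HCT116 and SW480 and is not read as a change below. SETDB1 itself averaged 31.9 CPM (SD 1.86, n = 3) in Caco2 vehicle, 35.8 (SD 3.5) in differentiation medium, 22.9 (SD 2.32) in the KRT20-negative and 24.3 (SD 3.49) in the KRT20-positive fraction. It was lower than in vehicle by edgeR in both fractions (log2 fold change -0.52, adjusted p = 0.00231, and -0.42, adjusted p = 0.0119; 0.0810 without KRT20-positive replicate 1). In HCT116 it was 49.7 CPM (SD 29.4) unsorted, 2.70 (SD 2.67) in the KRT-negative fraction (adjusted p = 0.0424 by edgeR; 0.161 when KRT-negative replicate 3 was dropped, 0.136 and 0.119 when unsorted replicate 1 or 2 was, 0.190 with no low-count filter, 0.113 with the GC class described below, 0.0622 with only the 2 groups fitted) and 16.6 (SD 13.7) in the KRT-positive fraction (adjusted p = 0.407). SETDB1 in SW480 was 28.8 CPM (SD 12), 13.6 (SD 20.6) and 3.98 (SD 6.89), with adjusted p = 0.938 and 0.523 by edgeR, and 1 library labelled KRT-negative, at 37.2 CPM, lay above every unsorted library. KRT20, the gene the sort is named for in Caco2 (the HCT116 and SW480 labels say only KRT), averaged 34.7 CPM in the Caco2 KRT20-positive fraction and 1.39 in the negative. It was 56.5 and 0.222 in the SW480 fractions. In HCT116 it was counted in only 1 library of the KRT-positive fraction, at 5.44 CPM, and in the unsorted libraries at 0.134 to 0.795 CPM.

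In Caco2 the gamma cluster as a whole stood higher in each of the 6 SETDB1-hairpin libraries than in each of the 6 scramble libraries, and PCDHGC3 and PCDHGA10 were the genes of the clusters that passed a test. The summed gamma counts were 41, 22 and 44 in vehicle, 41, 26 and 24 in differentiation medium, 75, 58 and 112 in the KRT20-negative fraction and 85, 61 and 52 in the KRT20-positive fraction. Scaled by library, this is 3.07 to 6.98 CPM in the scramble libraries and 7.23 to 12.3 CPM in the SETDB1-hairpin libraries, so the groups did not overlap, with a narrow gap between them. In bulk samples, fewer cells that use a gene and less of its RNA per cell cannot be told apart.

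PCDHGC3 was counted 14, 10 and 14 times in vehicle, 11, 12 and 5 times in differentiation medium, 31, 16 and 37 times in the KRT20-negative and 42, 33 and 20 times in the KRT20-positive fraction. The means were 1.80 CPM (SD 0.414, n = 3), 1.32 (SD 0.620), 3.27 (SD 1.11) and 4.48 (SD 1.63). All 3 KRT20-positive libraries lay above all 6 scramble libraries, while KRT20-negative replicate 2 fell within the range of vehicle. PCDHGC3 was higher in the KRT20-positive fraction than in vehicle by a log2 fold change of 1.29 (SE 0.40; edgeR quasi-likelihood test with Benjamini-Hochberg adjustment over all genes tested, adjusted p = 0.0129). This call ended without KRT20-positive replicate 1 (adjusted p = 0.0912) or without vehicle replicate 2 (adjusted p = 0.0562). Against differentiation medium the KRT20-positive fraction was higher by 1.76 (SE 0.42, adjusted p = 0.00192 by edgeR), a call that held whichever library was left out. The KRT20-negative fraction was higher than differentiation medium by 1.30 (SE 0.42, adjusted p = 0.0179 by edgeR; 0.0525, 0.103 and 0.0578 without KRT20-negative replicate 1, differentiation medium replicate 3 or KRT20-negative replicate 3). Against vehicle it was 0.82 (SE 0.40, adjusted p = 0.115), which did not pass.

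PCDHGA10, an A-type gene of the gamma cluster, was counted 17, 9 and 12 times in vehicle, 6, 7 and 16 times in differentiation medium, 20, 21 and 37 times in the KRT20-negative and 22, 13 and 21 times in the KRT20-positive fraction. Its means were 1.78 CPM (SD 0.472, n = 3), 1.34 (SD 0.739), 3.03 (SD 0.884) and 2.63 (SD 0.712). The KRT20-negative libraries lay above all scramble libraries, and the KRT20-positive ones overlapped them. One comparison passed: the KRT20-negative fraction was higher than differentiation medium by a log2 fold change of 1.14 (SE 0.42, adjusted p = 0.0343 by edgeR). That call ended without differentiation medium replicate 1 (adjusted p = 0.171) or replicate 2 (0.100), without KRT20-negative replicate 3 (0.150), with DESeq2 (0.0721) and with only the 2 groups fitted (0.0538). The log2 fold change of PCDHGA10 was 0.72 in the KRT20-negative fraction over vehicle (adjusted p = 0.170), 0.54 in the KRT20-positive fraction over vehicle (adjusted p = 0.334) and 0.96 over differentiation medium (adjusted p = 0.0921), all by edgeR. PCDHGB7, a B-type gene, was counted 8, 0 and 10 times in vehicle, 22, 4 and 2 in differentiation medium, 16, 14 and 14 in the KRT20-negative and 14, 12 and 8 in the KRT20-positive fraction. Its scramble libraries spread over the whole range of the others, and it passed in no comparison.

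**Figure D2:**
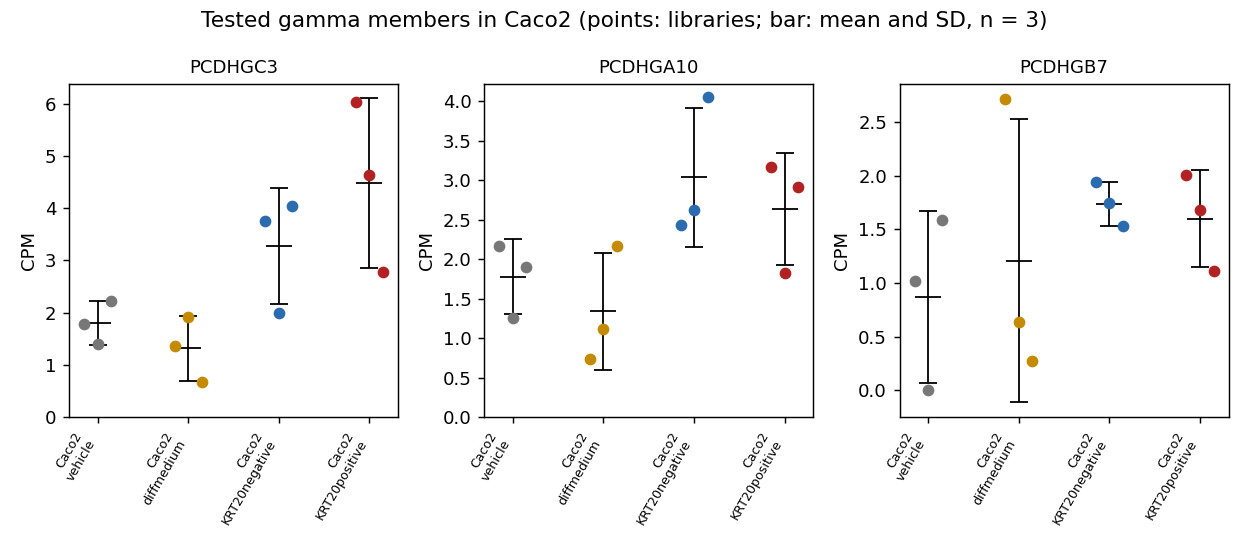
CPM of the 3 tested gamma genes in the 4 Caco2 groups; points are libraries and bars the mean and SD of 3. PCDHGC3 averages 4.48 CPM in the KRT20-positive fraction against 1.80 in vehicle, while the PCDHGB7 groups overlap.

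Read against the background, these calls were not many. In the KRT20-positive fraction against vehicle, 1 of the 3 genes tested was called, where 37.7% of all genes tested were; against differentiation medium it was 1 of 3, where 34.5% were. In the KRT20-negative fraction 2 of 3 were called against differentiation medium, where 38.0% of all genes were. Against vehicle 0 of 3 were called by edgeR (0 at an unadjusted p under 0.05 and 0 by DESeq2), where 36.2% of all genes were. Differentiation medium against vehicle called 0 of 3 (0 unadjusted and 0 by DESeq2; background 20.9%), and the KRT20-positive against the KRT20-negative fraction called 0 of 3 (0 unadjusted and 0 by DESeq2; background 4.08%). Of the 3 genes, 0 had all 6 SETDB1-hairpin libraries above the 3 vehicle libraries, against 19.3% of all genes tested, and 0 had them above all 6 scramble libraries, against 11.5%.

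The beta cluster in Caco2 was too low for a test of any of its 16 genes at the filter used. Its summed counts were 14, 11 and 4 in vehicle, 15, 8 and 3 in differentiation medium, 11, 16 and 38 in the KRT20-negative and 29, 27 and 44 in the KRT20-positive fraction. All 3 KRT20-positive libraries lay above all 6 scramble libraries, with a mean of 4.69 CPM (SD 1.25, n = 3) against 1.32 (SD 0.606) in vehicle, and the KRT20-negative libraries overlapped them. PCDHB9 gave 40 counts over the 6 SETDB1-hairpin libraries and 7 over the 6 scramble libraries, PCDHB14 34 and 15, PCDHB11 23 and 6, and PCDHB15 18 and 2. PCDHB16, in contrast, gave 9 and 11. The alpha cluster gave 12 counts over the SETDB1-hairpin libraries in PCDHA3, PCDHA6, PCDHA8 and PCDHA12 and 14 over the scramble libraries, too few to compare. Over all clusters, 13 to 18 of the 53 genes had counts in a SETDB1-hairpin library and 8 to 12 in a scramble library. Of all symbols, 17453 to 18099 were counted in a SETDB1-hairpin library and 17176 to 17807 in a scramble library. The library totals were 7157080 to 10074838 and 6538087 to 8701880 counts. The part of depth in the number of genes counted was not tested.

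One Caco2 library stood apart. KRT20-negative replicate 3 had the highest level of 13 of the 14 fibroblast markers (collagens, DCN, LUM and others) among the 12 libraries; their summed level was 1404 CPM there, 512 and 558 in the other KRT20-negative libraries, 607 to 662 in the KRT20-positive fraction, 593 to 659 in differentiation medium and 328 to 333 in vehicle. Of the 32 clustered protocadherins counted in Caco2, 8 were highest there: PCDHA6, PCDHB6, PCDHB13, PCDHGB1, PCDHGA5, PCDHGA6, PCDHGA10 and PCDHGA12. PCDHB6 and PCDHGA6 had 1 count each in it, and PCDHA6 and PCDHGB1 had 3 each. That library was also the deepest of the 12, with 10074838 counts and 18099 symbols. The share of all genes highest in it was not computed. The part of the fibroblast markers and of depth in the results was not tested. Without that library the gamma sums of the other 5 SETDB1-hairpin libraries, 7.23 to 12.2 CPM, were still above every scramble library. The neuron and glia markers summed to 2.35 to 8.31 CPM in Caco2, with S100B and SOX10 at 0 in all KRT20-negative libraries, while 9 to 10 of 10 colon epithelial markers were counted in every library.

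**Figure D3:**
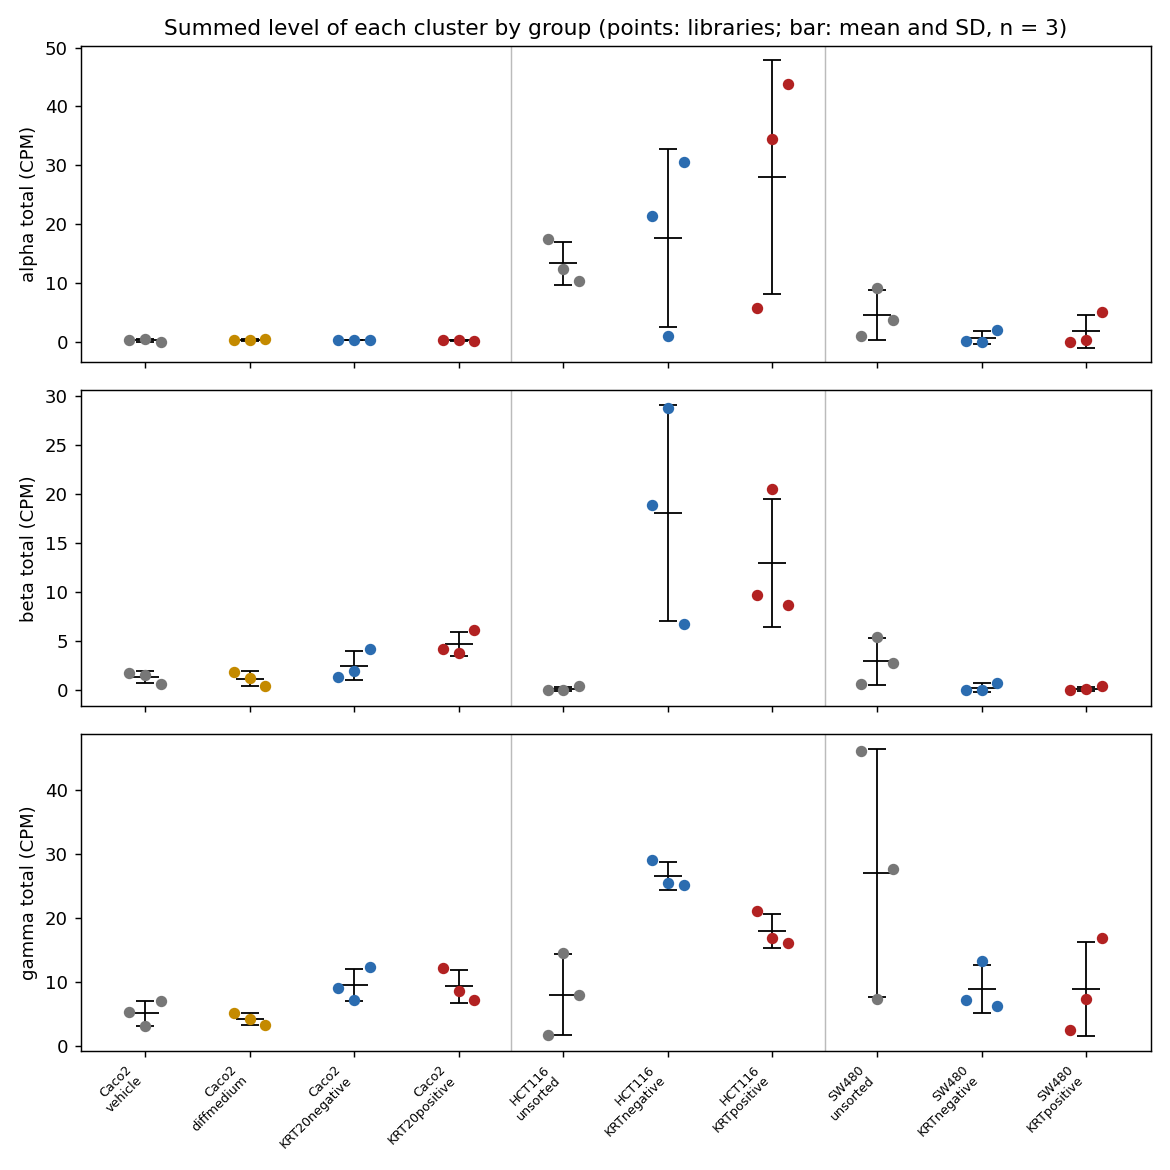
Summed CPM of the alpha, beta and gamma genes in each of the 10 groups; points are libraries and bars the mean and SD of 3. The beta panel is near 0 in unsorted HCT116 (mean 0.133 CPM) and averages 18.1 and 13.0 CPM in the HCT116 SETDB1-hairpin fractions.

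In HCT116 the beta cluster was almost silent in unsorted cells and was counted in all 6 SETDB1-hairpin libraries. Its summed counts were 0, 0 and 2 unsorted, 165, 285 and 68 in the KRT-negative and 98, 235 and 89 in the KRT-positive fraction. The groups did not overlap: 4 to 7 of the 16 beta genes had counts in each SETDB1-hairpin library and 0 to 1 in each unsorted library. Of the 13 beta genes counted in HCT116, 12 had counts in SETDB1-hairpin libraries alone, and so did 2 of 3 alpha and 6 of 8 gamma genes; 0 of these 24 genes were counted in unsorted cells alone. Of all 17433 symbols counted in HCT116, 11.0% had counts in SETDB1-hairpin libraries alone and 4.2% in unsorted libraries alone. Low genes are one-sided more often: among the symbols that the low-count filter left out, the shares were 43.0% and 17.5%, and 18 of the 19 clustered protocadherins left out were counted in SETDB1-hairpin libraries alone. The SETDB1-hairpin side has 6 libraries to 3 and is deeper, with 8024326 to 10221854 counts a library against 5349737 to 7130812, but counted no more genes in all, 12887 to 13595 against 12991 to 14148. Of these 13 beta genes, 6 were counted in a single library of the 9.

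PCDHB9 was counted 22, 50 and 17 times in the KRT-negative fraction, 71, 135 and 5 times in the KRT-positive fraction and 0 times in each unsorted library. It was thus present in all 6 SETDB1-hairpin libraries, at 3.08 CPM (SD 1.75, n = 3) and 6.45 CPM (SD 5.68). Set against 3 counts over the unsorted group (0.157 CPM), the group means were at least 19.6-fold and at least 41.1-fold higher. That bound covers counting error in the unsorted group and not the spread within a fraction. The KRT-positive libraries ranged from 0.486 to 11.8 CPM. The adjusted p by edgeR was 0.143 in the KRT-negative and 0.0732 in the KRT-positive fraction, which did not pass; DESeq2 called PCDHB9 in both.

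PCDHB10 was counted 8, 7 and 34 times in the KRT-negative fraction, 13, 27 and 0 times in the KRT-positive fraction and 0 times unsorted. The group means were at least 10.6-fold and at least 7.76-fold over the same floor, with adjusted p = 0.298 and 0.261 by edgeR. KRT-positive replicate 3 had no count. PCDHB14 was counted 104, 118 and 15 times in the KRT-negative fraction, 11, 2 and 15 times in the KRT-positive fraction, and 0, 0 and 2 times unsorted. Its mean was 8.42 CPM (SD 6.01, n = 3) in the KRT-negative fraction, 0.909 (SD 0.661) in the KRT-positive fraction and 0.133 (SD 0.230) unsorted, with adjusted p = 0.213 and 0.541 by edgeR. The lowest PCDHB14 library of the KRT-negative fraction equalled the highest of the KRT-positive fraction in counts, and DESeq2 called the KRT-negative comparison. The promoters of these 3 genes, printed above, each hold GTGGCGCT.

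Other beta genes in HCT116 appeared in 1 to 3 libraries. PCDHB12 had 87 counts in KRT-negative replicate 2 and PCDHB5 had 63 in KRT-positive replicate 3. PCDHB13 had 23 in KRT-negative replicate 1 and 34 in KRT-positive replicate 2. PCDHB3 had 22 in KRT-negative replicate 2, and 1 and 35 in KRT-positive replicates 1 and 2. Which beta genes had counts thus differed from library to library, and whether this goes beyond the sparse counting of these libraries was not tested. Lone counts in HCT116 had a median of 8 and a 90th percentile of 62, with 47.8% at 10 or more. PCDHB12 and PCDHB5 lay above that percentile, and lone counts are still not read as a change.

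The gamma cluster in HCT116 was again mostly PCDHGC3, counted 203, 190 and 134 times in the KRT-negative, 211, 183 and 89 times in the KRT-positive fraction and 11, 60 and 40 times unsorted. The mean was 18.5 CPM (SD 5.02, n = 3), 15.2 (SD 6.22) and 5.88 (SD 3.65), with every SETDB1-hairpin library above every unsorted one; the closest were 8.65 and 8.02 CPM. The fitted log2 fold changes were 1.66 (SE 0.83, adjusted p = 0.323) and 1.37 (SE 0.83, adjusted p = 0.368) by edgeR, neither past the threshold. Other gamma genes rested on lone libraries: PCDHGB7 had 62 and 120 counts in KRT-negative replicates 2 and 3, PCDHGA11 60 in KRT-positive replicate 3, PCDHGA12 51 in KRT-negative replicate 1, and PCDHGA10 48 in unsorted replicate 2. In the alpha cluster PCDHA8 was high in all groups and uneven within them. It was counted 115, 10 and 297 times in the KRT-negative, 57, 394 and 363 times in the KRT-positive fraction and 115, 92 and 52 times unsorted, with adjusted p = 0.975 and 0.660 by edgeR. PCDHA10 was counted in KRT-negative replicate 1 (72) and KRT-positive replicate 3 (88) alone.

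**Figure D4:**
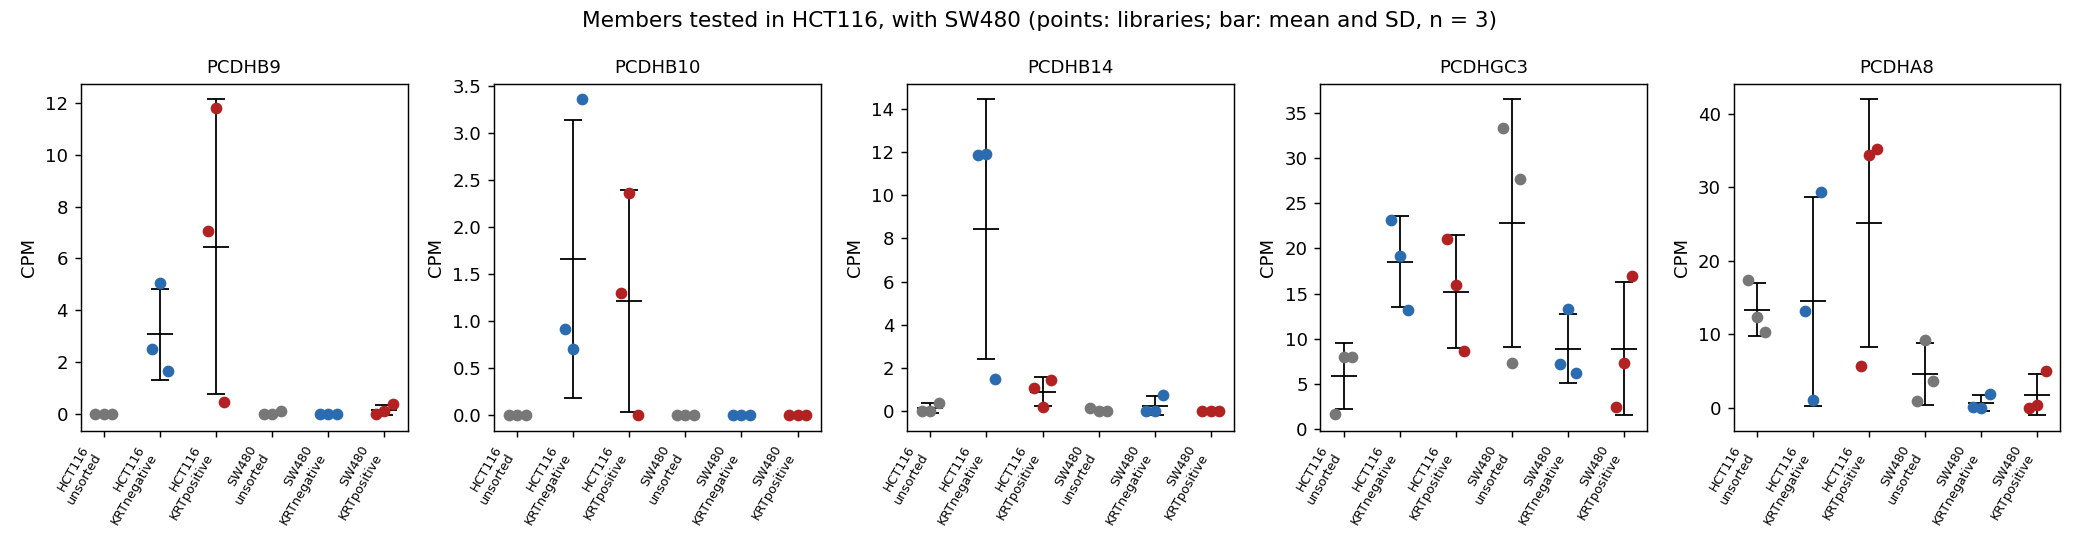
CPM of clustered protocadherins in the 3 groups of HCT116 and of SW480; points are libraries and bars the mean and SD of 3. In HCT116 PCDHB9 is 0 in the 3 unsorted libraries and above 0 in all 6 SETDB1-hairpin libraries, while PCDHGC3 in SW480 averages 22.8 CPM unsorted and 8.90 and 8.88 in the fractions.

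In the tests of all genes in HCT116, 0 of 5 genes tested were called by edgeR in the KRT-negative fraction (2 at an unadjusted p under 0.05, PCDHB9 and PCDHB14, and 2 by DESeq2; background 5.26%). In the KRT-positive fraction 0 of 5 were called (1 unadjusted, PCDHB9, and 1 by DESeq2; background 9.28%), and between the fractions 0 of 5 (0 unadjusted and 0 by DESeq2; background 0.55%). All 6 SETDB1-hairpin libraries lay above the 3 unsorted ones for 2 of 5, PCDHB9 and PCDHGC3, against 6.54% of all genes tested. PCDHB9, PCDHB10 and PCDHB14 passed the filter through their SETDB1-hairpin libraries.

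The libraries of HCT116 and SW480 were put into 2 classes by how their levels, relative to the line's mean, lean with the GC content of genes. The class was read from 7533 genes that averaged 20 CPM or more and not from the labels. The slope was cut at 0, so 2 classes had to follow. It was closest to the cut in HCT116 KRT-positive replicate 1 (-0.41). The AT-leaning class holds KRT-negative replicate 1, all 3 KRT-positive libraries and unsorted replicates 1 and 2 of HCT116, and replicate 2 of each group of SW480. Within the AT-leaning HCT116 libraries PCDHB9 was 22, 71, 135 and 5 against 0 and 0 counts unsorted, and PCDHGC3 23.2, 21, 16 and 8.65 against 1.66 and 8.02 CPM. Within the GC-leaning ones PCDHB9 was 50 and 17 against 0 counts, and PCDHGC3 19.2 and 13.2 against 7.95 CPM. In the AT-leaning class every SETDB1-hairpin library lay above both unsorted ones for both genes. The GC-leaning class holds no KRT-positive library and 1 unsorted library, so there only that library can be set against the 2 KRT-negative ones, which were higher for both genes. Both genes had all 6 SETDB1-hairpin libraries above the 3 unsorted ones to begin with, so this order within each class had to follow. It is no test of the class. The fibroblast markers summed to 149 to 232 CPM in the SETDB1-hairpin libraries and 98.9 to 138 unsorted, with PDGFRA, THY1 and FAP at 0 in all 9, and the neuron and glia markers to 92.8 to 212 and 70.8 to 98.0, with GFAP, S100B and SOX10 at 0 in all 9. Their part in the result was not tested.

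SW480 showed fewer genes. The beta cluster had 4, 47 and 26 counts unsorted, 0, 0 and 7 in the KRT-negative and 0, 1 and 4 in the KRT-positive fraction. PCDHB13 gave 47 of these in unsorted replicate 2, PCDHB5 3 and 25 in unsorted replicates 1 and 3, and PCDHB14 7 in KRT-negative replicate 3. PCDHB9, which stood out in HCT116, had at most 4 counts in any SW480 library. PCDHGB7 had 84 counts in unsorted replicate 1 alone. The groups overlap: KRT-negative replicate 3, with 7 beta counts, lies above unsorted replicate 1, with 4.

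PCDHGC3 in SW480 was counted 221, 63 and 256 times unsorted, 65, 119 and 58 times in the KRT-negative and 25, 67 and 173 times in the KRT-positive fraction. The means were 22.8 CPM (SD 13.7, n = 3), 8.90 (SD 3.79) and 8.88 (SD 7.36), and the groups overlapped. The log2 fold changes were -1.37 (SE 1.05, adjusted p = 0.726) and -1.33 (SE 1.05, adjusted p = 0.627) by edgeR. Among the GC-leaning libraries the 2 unsorted ones had 33.4 and 27.7 CPM against 2.47 to 16.9 in the fractions. Among the AT-leaning replicates 2 the unsorted library had 7.26 CPM and the fractions 13.2 and 7.26. No difference between the groups was called, and the part of the class was not tested. PCDHA8 was counted 6, 80 and 34 times unsorted, 1, 0 and 18 times in the KRT-negative and 0, 3 and 51 times in the KRT-positive fraction, also with overlap.

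In SW480 0 of 2 genes tested were called by edgeR in the KRT-negative fraction against unsorted (0 unadjusted and 0 by DESeq2; background 2.12%), in the KRT-positive fraction (0 and 0; background 3.47%) and between the fractions (0 and 0; background 0.445%). None of the 2 had all 6 SETDB1-hairpin libraries above the 3 unsorted ones, against 4.55% of all genes. In a joint fit of unsorted cells of HCT116 and SW480, 0 of 7 were called by edgeR (0 unadjusted and 0 by DESeq2; background 10.3%), with PCDHGC3 at a log2 difference of -1.92 (SE 1.00, adjusted p = 0.247) for HCT116 over SW480. The change from unsorted to fraction was also compared between the lines, a test chosen after the values were seen. PCDHGC3 differed by 3.02 (SE 1.40, adjusted p = 0.423) in the KRT-negative and 2.72 (SE 1.40, adjusted p = 0.436) in the KRT-positive fraction, as the change in HCT116 minus that in SW480 on the log2 scale. By edgeR 0 of 7 genes were called in either (4 and 1 at an unadjusted p under 0.05; DESeq2 was not run here; background 1.03% and 1.08%), so a difference between the lines was not established.

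**Figure D5:**
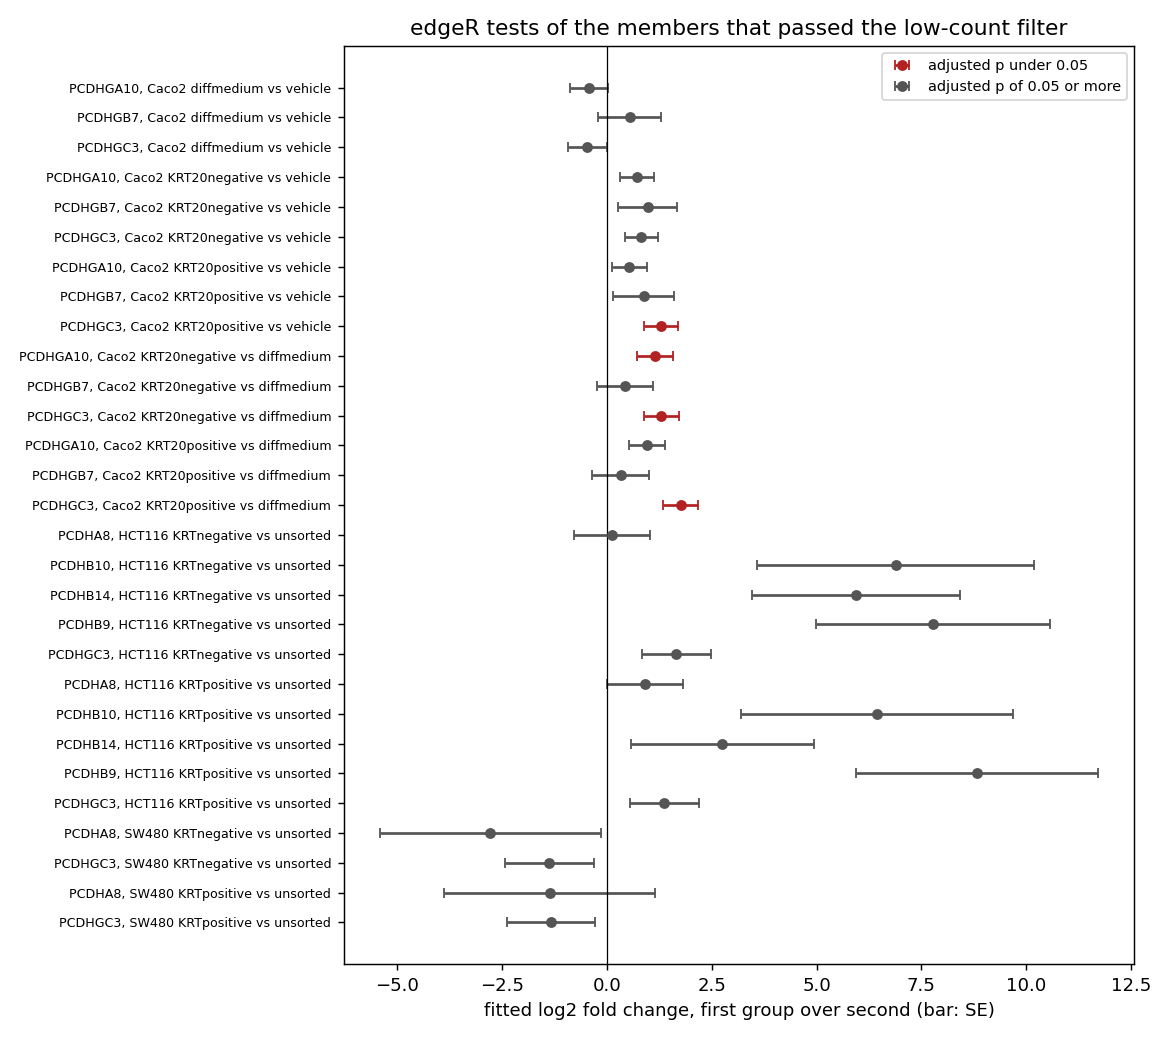
Fitted log2 fold changes (points) with their SE (bars) by edgeR for the clustered protocadherins tested. Comparisons between positive and negative fractions and between lines are not drawn, and red marks an adjusted p under 0.05. The 4 red points are PCDHGC3 (3) and PCDHGA10 (1) in Caco2, and the large values of PCDHB9 and PCDHB10 in HCT116 are against groups with 0 counts, so they are no bound on the fold.

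Over all 10 groups PCDHGC3 was highest in unsorted SW480, then in the HCT116 KRT-negative and KRT-positive fractions, the 2 SW480 fractions, unsorted HCT116, and the 4 Caco2 groups with the SETDB1-hairpin fractions above vehicle and differentiation medium. Neighbours in that order differed by less than the larger of their SDs except at the step from the HCT116 KRT-positive fraction to the SW480 KRT-negative fraction (15.2 to 8.90 CPM) and at that from the Caco2 KRT20-negative fraction to vehicle (3.27 to 1.80 CPM). In the 6 SETDB1-hairpin libraries of Caco2 PCDHGC3 was the leading gamma gene in 3, was tied with PCDHGA10 in 1 and was below it in 2. Its share was 27.6% to 54.1% of gamma counts in SETDB1-hairpin libraries and 20.8% to 46.2% in scramble libraries, ranges that overlap.

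The known regulators of the locus were followed as a list of 38 genes: CTCF and cohesin subunits and loaders, DNA methyltransferases and TET enzymes, SETDB1 with its partners, and other enzymes and readers of histone H3 lysine 9 methylation. In Caco2, 4 rose and 15 fell of 38 in the KRT20-negative fraction against vehicle, and 3 rose and 16 fell in the KRT20-positive fraction; SETDB1, the hairpin's target, is one of those that fell. Over all genes tested 18.6% rose and 17.6% fell in the KRT20-negative fraction, and 19.3% and 18.4% in the KRT20-positive fraction. The list's median log2 fold change was -0.18 in both, against 0.01 over all genes. ATF7IP, the partner that stabilises SETDB1 in the nucleus, rose from 125 CPM in vehicle to 392 and 326 (log2 fold change 1.60 and 1.35), and the DNA methyltransferase DNMT3B fell by 0.90 and 0.98. In HCT116, 1 rose and 5 fell of 37 in each fraction. Of all genes, 2.82% rose and 2.44% fell in the KRT-negative and 4.26% and 5.02% in the KRT-positive fraction. In the KRT-negative fraction TET3 rose, and DNMT1, SETDB1 (the hairpin's target), CBX1, RAD21 and TRIM28 fell. All these calls but DNMT1 ended when single libraries were left out. The adjusted p by edgeR then reached 0.0926 (TET3), 0.161 (SETDB1), 0.199 (CBX1), 0.102 (RAD21) and 0.119 (TRIM28). In the KRT-positive fraction the falls of CBX1 (up to 0.0893) and CTCF (up to 0.111) ended likewise. DNMT1, which maintains DNA methylation, fell from 558 CPM to 229 (log2 fold change -1.28, adjusted p = 0.00161 by edgeR) and 218 (-1.36, adjusted p = 0.000684), calls that held whichever library was left out. In SW480, 0 of 38 were called in the KRT-negative fraction by edgeR (6 at an unadjusted p under 0.05 and 0 by DESeq2), and DNMT1 fell in the KRT-positive fraction from 313 to 141 CPM (adjusted p = 0.0271; 0.0594, 0.0682, 0.0928 and 0.122 without KRT-positive replicates 2 or 3 or unsorted replicates 1 or 3, and 0.0558 with only the 2 groups fitted).

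Among the neighbours of the clusters on chromosome 5, 3 rose and 4 fell of 21 tested in each Caco2 fraction against vehicle, a share called no higher than the 36.2% and 37.7% of all genes called in these comparisons. TAF7, which lies between the beta and gamma clusters and encodes a subunit of the general transcription factor TFIID, rose in the KRT20-negative fraction from 85.6 to 114 CPM (log2 fold change 0.36, adjusted p = 0.00166 by edgeR). In HCT116, 0 of 20 neighbours were called in the KRT-negative fraction by edgeR (4 at an unadjusted p under 0.05 and 0 by DESeq2). In the KRT-positive fraction 2 of 20 rose by edgeR, where 4.26% of all genes did: NDFIP1 (1.19) and TAF7 (1.01, adjusted p = 0.0480). Both calls ended when single libraries were left out, with adjusted p up to 0.0679 for NDFIP1 and up to 0.153 for TAF7. The TAF7 call also ended with the replicate number as a block (adjusted p = 0.0526), with the GC class as a term (0.0559) and with only the 2 groups fitted (0.0613).

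The non-clustered protocadherin PCDH1, an epithelial adhesion protein whose gene lies beyond the gamma cluster, moved in Caco2 from 6.59 CPM in vehicle to 14.7 in differentiation medium, 12 in the KRT20-negative and 31.9 in the KRT20-positive fraction. All 3 groups were higher than vehicle by edgeR, with log2 fold changes of 1.14, 0.82 and 2.25. CDHR5, a protocadherin of the brush border, rose from 34.3 to 85.5 and 88.3 CPM in the fractions. In all, 2 of 4 protocadherins outside the clusters rose in the KRT20-negative and 3 of 4 in the KRT20-positive fraction against vehicle, and 0 fell. Of all genes tested, 18.6% and 19.3% rose in these comparisons. In SW480 PCDH1 was 51.7 CPM unsorted and 177 in the KRT-negative fraction (log2 fold change 1.74, adjusted p = 0.0211 by edgeR), a call that ended without KRT-negative replicates 1 or 3 or unsorted replicates 1 or 3 (adjusted p = 0.107, 0.0624, 0.0671 and 0.0973). In HCT116, 0 of 5 passed by edgeR in either fraction, with 1 at an unadjusted p under 0.05 in each. DESeq2 called 1, FAT1, in the KRT-negative fraction and 0 in the KRT-positive fraction. Of the partners of protocadherin tails, such as kinases and the WAVE complex, 1 rose and 3 fell of 14 in the Caco2 KRT20-negative fraction and 0 rose and 2 fell in the KRT20-positive fraction. This is a share called no higher than the 36.2% and 37.7% of all genes called against vehicle. Among the partners called were RAC1 (fell by 0.37 and 0.22) and TIAM1 (fell by 0.61 and 0.55). The TIAM1 call in the KRT20-positive fraction ended without vehicle replicate 1 (adjusted p = 0.0656) or KRT20-positive replicate 2 (0.101). In HCT116, 1 of 18, TIAM1, fell in the KRT-positive fraction (adjusted p = 0.0353 by edgeR), where 5.02% of all genes fell. The TIAM1 call there ended with library totals (0.0635) and without KRT-positive replicates 1 or 3 or unsorted replicates 1 or 2 (0.136, 0.136, 0.106 and 0.0546).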

How the data were processed

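RNA of 30 samples of Caco2, HCT116 and SW480 cells was made into QuantSeq 3′ tag libraries, per the labels' protocols. The deposited files hold raw counts per gene symbol, and the submitters' processing notes name Bowtie2, edgeR and hg19 without giving parameters. Lines of a repeated symbol were summed, leaving 24462 symbols. Each line was fitted apart in edgeR 4.0.16 (R 4.3.3): filterByExpr, TMM scaling and a robust quasi-likelihood F test, with Benjamini-Hochberg adjustment over all genes tested and a threshold of 0.05. HCT116 and SW480 were also fitted together for unsorted cells and for the difference between lines. Levels are CPM on one TMM scale over 30 libraries. Cluster sums were tested only as an alternative, with the alpha and the gamma genes each summed. DESeq2 1.42.0, other scalings, no filter, a replicate block, a GC class term and left-out libraries were alternatives. Scripts were tested on simulated data. No 2 libraries of a group were identical.

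Every member was counted. Named were called members, the 5 highest of each cluster, and from each list at most 4 genes per comparison with the smallest adjusted p. The members and lists were chosen with earlier results of these data known.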

Additional observations from a re-analysis of the deposited data

How the results depend on the processing

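The number of clustered protocadherins called moved under few alternatives. For the KRT20-negative fraction against vehicle in Caco2 it went from 0 to 1 with the alpha and the gamma genes each summed. In that setting the gamma sum was the only one tested in Caco2. It was called higher in the KRT20-negative and KRT20-positive fractions against vehicle (log2 fold change 0.87 and 0.86) and against differentiation medium (1.16 and 1.15). It was not called between the fractions or between the scramble groups. In the main fit 34.5% to 38.0% of all genes were called against these scramble groups. Against vehicle the KRT20-positive count went from 1 to 2 without the low-count filter, which added PCDHB14. For the KRT20-negative fraction against differentiation medium the count went from 2 to 1 with the clusters summed, where 1 was tested. It also went to 1 with only the 2 groups in the fit and with DESeq2, and to 3 without the filter, which added PCDHB16 as lower. For the KRT20-positive fraction against differentiation medium it went from 1 to 3 without the filter, which added PCDHB9 and PCDHB15, and to 2 with DESeq2. With DESeq2 it went from 0 to 2 in the KRT-negative and from 0 to 1 in the KRT-positive fraction of HCT116. The cause was not tested. Leaving out single libraries gave 0 to 2, 0 to 2 and 1 to 2 for the KRT20-positive fraction against vehicle and the KRT20-negative and KRT20-positive fractions against differentiation medium, and 0 in every other comparison. The summed gamma level of the HCT116 KRT-positive fraction was 21.1 CPM with library totals and 18.0 with TMM.

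With the replicate number as a block, the count was the same in 13 of 13 comparisons (1, 2 and 1 in those with calls, 0 elsewhere). Correlations between libraries of different groups were taken on what was left of each gene after its group mean was removed. On that scale same-numbered Caco2 libraries correlated at -0.000858 to 0.0868, those of HCT116 at -0.0221 to 0.0648 and those of SW480 at 0.000193 to 0.103. Their medians were 0.0483, -0.00816 and 0.0297, against -0.0240, 0.00408 and -0.0340 for differently numbered libraries. In SW480 the number also follows the GC class, with replicate 2 AT-leaning in each group. The numbers were not taken as a pairing, and the block gives the counts if they are. With the GC class as a term, an alternative chosen after seeing the data, the count was the same in 7 of 7.

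Over all genes, the count called moved by over 1.5 times in several comparisons. With DESeq2 it was 1298 against 698 and 2012 against 1232 in the HCT116 fractions, 464 against 73 between them, 826 against 281 and 1349 against 460 in the SW480 fractions, 503 against 59 between them, and 2611 against 1532 for unsorted cells of the lines. With the replicate block it was 461, 793 and 179 in the 3 SW480 comparisons, and with the GC class 531, 887 and 224, and 45 between the HCT116 fractions. With only the groups compared in the fit it was 307 against 570 between the Caco2 fractions, 126 between the HCT116 fractions, and 432, 228 and 18 in SW480. Without the filter it was 189 between the HCT116 and 101 between the SW480 fractions.

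Depth limits the alpha and beta genes of Caco2, with 26 and 220 counts over the 12 libraries, and lone counts limit HCT116 and SW480.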

Other observations

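Among the pseudogenes of the locus, PCDHB19P of the beta cluster was counted most. It had 62 counts over 10 of the 12 Caco2 libraries, with at most 17 in one library. In HCT116 it had 150 counts over 2 of 9 libraries, 147 of them in KRT-positive replicate 1, and in SW480 39 counts over 2 of 9 libraries, 38 of them in KRT-negative replicate 2. PCDHB17P, PCDHB18P and PCDHGB8P had 3, 10 and 3 counts in Caco2 and 0 in HCT116 and SW480, by raw counts with no test.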
